A study of Mus musculus with 40 samples.

Results

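The cervix and the myometrium of pregnant mice that had received phosphate-buffered saline (PBS) were compared gene by gene at 18.5 days post coitum, the day of term in this series. The 20 libraries were those labelled PBS, 10 from cervix and 10 from myometrium, out of 40 in the series, and they were taken by their labels alone. All came from pregnant mice of the inbred strain C57BL/6, and PBS was given into the peritoneal cavity. The labels state neither the mice's age nor when the PBS was injected. The remaining 20 libraries, 10 of each tissue, came from mice given human chorionic gonadotropin (hCG) by the same route and serve here only as a second set in which to measure the tissue difference. The labels call the tissue of the uterine libraries myometrium, while their titles say uterus. Each library carries a number, but no label ties these numbers to animals, so p-values measure the spread between these samples.

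The uterus, cervix and vagina of the mouse arise from the Müllerian ducts, and genes of the Hox clusters are expressed along that duct in an order that follows their position in the cluster, with earlier genes towards the oviduct and uterus and the last genes towards the vagina. The myometrium is the smooth muscle wall that contracts at birth. The cervix is mostly stroma with less muscle, its canal is lined by mucus-secreting columnar epithelium, and its vaginal face is covered by stratified squamous epithelium that depends on the transcription factor p63. Before birth its matrix softens so that it can open, and mucus closes the canal until then.

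Levels are given as CPM, the count of a gene scaled to the size of its library, with TMM factors over the 20 libraries, and each group is given by its lowest and highest library and its median. A log2 difference is cervix minus myometrium, so a negative value means a higher level in myometrium. The adjusted p is that of edgeR's quasi-likelihood test over all 14545 genes that passed the filter on low counts, adjusted by the Benjamini-Hochberg method, and a gene is called at an adjusted p under 0.05. By this test 54.0% of all tested genes were called, 28.0% higher in cervix and 26.1% higher in myometrium. A stricter test asked for a difference of more than 2-fold. It called 12.7% of genes, 914 (6.28%) higher in cervix and 927 (6.37%) higher in myometrium. The ranges of the groups did not overlap for 7.2% of tested genes with cervix higher and for 7.23% with myometrium higher. The median log2 difference over all tested genes was 0.04, against which the medians of gene lists below are to be read.

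The libraries held 5933199 to 25028360 counts, and 4 cervix libraries (1 to 4) were deeper than the other 6. The defining genes of each label were present in every library of that label: the smooth muscle markers summed to 14677 to 31223 CPM in myometrium and the suprabasal squamous markers to 7025 to 78157 CPM in cervix. Smooth muscle genes were not all that the myometrium libraries held. Decidua markers summed to 171 to 318 CPM there and 69.9 to 165 CPM in cervix. A single member, the small heat shock protein gene Cryab, held 83.2 to 255 CPM of the myometrium sums and 10.6 to 24 CPM of the cervix sums. Of the 6 tested decidua markers 3 were called higher in myometrium and 2 in cervix. Several libraries stood apart. The yolk sac markers, genes of a fetal membrane, summed to 15551 to 23154 CPM in myometrium libraries 4, 8 and R3, 258 to 1135 CPM in the other 7 and 42.1 to 309 CPM in cervix. Skeletal muscle markers reached 1208 CPM in cervix library 2 and erythroid markers 2924 CPM in myometrium R3. The gene Lars2 of a mitochondrial enzyme held 3.51% to 17.5% of all counts in cervix libraries 5 to 8 and 4.61% to 5.63% in myometrium libraries 2 and 8. On the first principal component, which held 67.3% of the variance and separated the tissues, cervix R3 lay nearest to the myometrium. It also had the lowest sum of suprabasal markers and the highest sum of smooth muscle markers of the cervix libraries. Results that rest most on these libraries are given with and without them. In bulk tissue, fewer cells of a type and less RNA per cell cannot be told apart.

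Genes of the squamous lining were higher in cervix. All 19 tested members of the suprabasal squamous list were called higher in cervix, all of them past the 2-fold test, with a median log2 difference of 9.58, the largest median among the 32 lists described here. Of 10 basal squamous markers 7 were called higher in cervix and none lower (median 5.20). The keratin of the upper layers, Krt13 (gene ID 16663, chr11:100117327-100121566 on GRCm38.p6), stood at 2292 to 10736 CPM (median 4472) in cervix and 0 to 0.174 CPM (median 0.0542) in myometrium. No library of either tissue entered the range of the other (log2 difference 16.08, SE 0.51, adjusted p = 3.6e-16). The basal keratin Krt5 stood at 2257 to 6939 CPM (median 3606) and 0 to 1.68 CPM (median 0.31), again without overlap (log2 difference 13.29, SE 0.49, adjusted p = 2.49e-15). The cornified envelope, the crosslinked protein shell of a squamous cell, was represented by Ivl (involucrin) at 7.21 to 31.3 CPM (median 18.7) in cervix and 0 to 0.418 CPM (median 0.0749) in myometrium (log2 difference 7.10, SE 0.44, adjusted p = 1.18e-11) and by Sprr1a at 155 to 1315 CPM (median 498) and 0.195 to 1.37 CPM (median 0.778) (log2 difference 9.58, SE 0.51, adjusted p = 1.06e-12). Ivl was thus far less abundant than Sprr1a in every cervix library when counted in CPM. Ivl, and the promoter genes Krtdap, Sbsn, Myl9, Cnn2 and Vcl below, were chosen after their values were seen.

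The promoters of these genes, taken from RefSeq as the 250 bases before and 50 after each start on GRCm38.p6, were searched on both strands for the AP-1 motif TGANTCA, a binding sequence of the Fos and Jun family. An entry existed for 12 of the 21 suprabasal genes, and 7 of the 12 (58.3%) held the motif: Ivl, Krt13, Krtdap, Lor, Sbsn, Sprr1a and Sprr1b. Lor and Sprr1b did not pass the count filter. The motif stood in 0 of 5 basal squamous promoters, 1 of 10 smooth muscle promoters and 2425 of 27025 promoters of all genes (8.97%). The stretches around it are shown because most of the suprabasal promoters searched hold it. Each is written on the strand of its gene and ends before the start site, with TGANTCA in capitals. Krt13 has 2 annotated start sites. The first stretch ends its match 190 bases before the start at 100121566, and the other 2 end theirs 177 and 28 bases before a start inside the gene. The Sprr1a stretch holds a second match, tgagtca, in lower case upstream of the capitals.
Krt13 chr11:100121716-100121802 minus strand: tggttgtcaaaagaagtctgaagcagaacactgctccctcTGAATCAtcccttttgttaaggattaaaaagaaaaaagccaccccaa
Krt13 chr11:100120714-100120800 minus strand: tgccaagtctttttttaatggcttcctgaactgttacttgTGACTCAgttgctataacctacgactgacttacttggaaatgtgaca
Krt13 chr11:100120578-100120651 minus strand: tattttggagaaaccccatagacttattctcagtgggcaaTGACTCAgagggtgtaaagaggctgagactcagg
Ivl chr3:92573805-92573891 minus strand: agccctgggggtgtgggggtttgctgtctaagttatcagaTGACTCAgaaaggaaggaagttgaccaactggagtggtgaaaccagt
Sprr1a chr3:92485951-92486037 minus strand: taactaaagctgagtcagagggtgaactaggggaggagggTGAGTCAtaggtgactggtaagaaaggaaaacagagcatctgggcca
Krtdap chr7:30787784-30787870 plus strand: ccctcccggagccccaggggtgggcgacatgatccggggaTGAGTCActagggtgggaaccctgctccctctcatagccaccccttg
Sbsn chr7:30751312-30751398 plus strand: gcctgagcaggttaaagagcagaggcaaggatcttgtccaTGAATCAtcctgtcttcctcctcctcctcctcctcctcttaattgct
A match to these letters describes the sequence and says nothing of binding in these tissues. Krtdap, a keratinocyte protein of unclear role, stood at 2.17 to 182 CPM (median 36.7) in cervix and 0 to 0.992 CPM (median 0.0837) in myometrium. Sbsn (suprabasin) was the exception among the promoters shown in that its groups overlapped, at 21.8 to 226 CPM (median 48.9) in cervix and 14.1 to 34.4 CPM (median 23.3) in myometrium (log2 difference 1.72, SE 0.34, adjusted p = 0.000208).

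Genes of the contractile apparatus were higher in myometrium. Of 35 tested, 31 were called higher in myometrium and 1 in cervix, with a median log2 difference of -1.22, and 9 passed the 2-fold test. All 14 smooth muscle markers were called higher in myometrium (median -1.50). The enteric and uterine smooth muscle actin Actg2 (gene ID 11468, chr6:83512909-83536251) stood at 239 to 1588 CPM (median 975) in cervix and 2644 to 5676 CPM (median 3675) in myometrium, and desmin, Des, the muscle intermediate filament, at 110.4 to 665 CPM (median 377) and 1205 to 2677 CPM (median 1589). For neither gene did the groups overlap. The calcium-binding protein Casq2 stood at 1.37 to 7.42 CPM (median 4.55) and 9.85 to 61.4 CPM (median 37) (log2 difference -2.89, SE 0.33, adjusted p = 1.5e-07), and Lmod1, an actin nucleator of smooth muscle, at 17.1 to 117 CPM (median 53.4) and 129 to 286 CPM (median 185) (log2 difference -1.70, SE 0.26, adjusted p = 1.22e-05). Myocd, the coactivator of serum response factor that drives smooth muscle genes, overlapped between the tissues at 3.13 to 51.1 CPM (median 18.4) and 23.2 to 125 CPM (median 51.6) (log2 difference -1.34, SE 0.41, adjusted p = 0.00857). All smooth muscle genes named here were well expressed in cervix too, apart from Casq2.

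Serum response factor binds the CArG box, and this motif was found in 4 of the 30 promoters available for the 37 contractile genes (13.3%: Cnn2, Myl6, Myl9 and Vcl), in none of the 12 suprabasal squamous promoters, in none of the 10 promoters of the smooth muscle marker list and in 488 of 27025 promoters of all genes (1.81%). The windows cover only 250 bases before the start and no introns. The stretches around 3 of these matches follow, with the CArG box in capitals. The matches end 152 (Myl9), 47 (Cnn2) and 218 (Vcl) bases before the start, and the edge of the window cuts the Vcl stretch short.
Myl9 chr2:156775263-156775352 plus strand: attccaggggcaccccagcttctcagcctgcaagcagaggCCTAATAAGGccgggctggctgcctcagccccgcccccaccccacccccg
Cnn2 chr10:79988504-79988593 plus strand: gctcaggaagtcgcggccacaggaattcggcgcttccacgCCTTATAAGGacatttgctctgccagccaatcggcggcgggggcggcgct
Vcl chr14:20929148-20929220 plus strand: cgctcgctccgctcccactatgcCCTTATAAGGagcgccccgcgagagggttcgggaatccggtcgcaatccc
The myosin light chain Myl9 stood at 141 to 854 CPM (median 364) in cervix and 690.2 to 1847 CPM (median 1043) in myometrium (log2 difference -1.63, SE 0.29, adjusted p = 6.81e-05). The actin-binding protein Cnn2 (calponin 2) stood at 39.3 to 135 CPM (median 78.2) and 81.8 to 199 CPM (median 130.0) (log2 difference -0.81, SE 0.19, adjusted p = 0.00125), and the adhesion protein vinculin, Vcl, at 227 to 473 CPM (median 375) and 426 to 825 CPM (median 584) (log2 difference -0.76, SE 0.14, adjusted p = 9.7e-05). All 3 were higher in myometrium and the ranges of all 3 overlapped.

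Transcription factors divided evenly by number. Of 382 tested members of the families searched, 127 were called higher in cervix and 126 in myometrium, with a median log2 difference of -0.04, and 58 and 38 passed the 2-fold test. The Hox genes did not divide evenly, and their direction followed cluster and position. The 10 tested genes of clusters A and D in groups 3 to 11 were all called higher in myometrium (median log2 difference -2.31), the group 13 genes of the same clusters were higher in cervix, and of 8 cluster B genes 3 were called higher in cervix and 5 were not called.

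Hoxd13 (gene ID 15433, chr2:74668225-74671603), the last gene of cluster D and a regulator of limb and lower urogenital development, stood at 2.4 to 14.8 CPM (median 7.29) in cervix and had no count in any of the 10 myometrium libraries. It was at least 361-fold higher in cervix, computed against 3 counts over the myometrium group, which corresponds to 0.0232 CPM. Hoxa13 (gene ID 15398, chr6:52258853-52260880) stood at 3.92 to 8.47 CPM (median 5.51) in cervix and had 1 count in the whole myometrium group, a ratio of 789-fold (95% counting interval 141 to 31206). Every cervix library expressed both genes. The neighbouring Hoxd12 was near 0 in both tissues, at 0 to 0.309 CPM in cervix and 0 to 0.644 CPM in myometrium. Hoxb13 had counts in only 2 cervix libraries, with up to 5.15 CPM, and in 1 myometrium library.

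Hoxd10 (gene ID 15430, chr2:74684273-74695106) showed the opposite order, at 0.97 to 4.12 CPM (median 1.85) in cervix and 30.3 to 40.7 CPM (median 37.4) in myometrium (log2 difference -4.05, SE 0.22, adjusted p = 1.91e-12). Hoxd9 stood at 0.441 to 3.24 CPM (median 1.56) and 11.6 to 17.4 CPM (median 14) (log2 difference -3.10, SE 0.27, adjusted p = 2.33e-09), and Hoxd11 at 0.202 to 0.511 CPM (median 0.389) and 2.24 to 6.62 CPM (median 4) (log2 difference -3.45, SE 0.24, adjusted p = 7.65e-11). These 3 genes did not overlap between the tissues. Hoxd3, Hoxd4 and Hoxd8 were also lower in every cervix library than in every myometrium library, with log2 differences of -2.67, -2.93 and -1.85.

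In cluster A the genes of implantation overlapped between the tissues. Hoxa10 (gene ID 15395, chr6:52231197-52240854), which is required in the uterus for the decidual response, stood at 8.95 to 36.2 CPM (median 17.6) in cervix and 30.4 to 129.6 CPM (median 68.8) in myometrium (log2 difference -1.95, SE 0.28, adjusted p = 5.02e-06). Hoxa11 stood at 5.82 to 47.5 CPM (median 17.1) and 22.9 to 66.8 CPM (median 47.4) (log2 difference -1.26, SE 0.30, adjusted p = 0.0011). Hoxa9 and Hoxa5 had log2 differences of -1.60 (SE 0.37) and -1.77 (SE 0.39). The only cluster C gene that passed the filter, Hoxc6, was at 0 to 0.314 CPM (median 0.13) in cervix and 0.992 to 3.85 CPM (median 2.38) in myometrium (log2 difference -3.97, SE 0.40, adjusted p = 2.52e-08).

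Cluster B was the least divided. Hoxb2 was higher in cervix at 9.72 to 21.1 CPM (median 14.4) against 3.74 to 7.38 CPM (median 5.34), without overlap (log2 difference 1.48, SE 0.15, adjusted p = 2.25e-08). Hoxb4 and Hoxb7 were called higher in cervix with log2 differences of 0.64 (SE 0.24) and 0.54 (SE 0.13), and their ranges overlapped. The call of Hoxb4 was lost without cervix library 6 or 7 or without myometrium library 2, 3 or R4 (adjusted p = 0.0502 to 0.0649). For Hoxb3, Hoxb5, Hoxb6, Hoxb8 and Hoxb9 the log2 differences were 0.12, -0.29, -0.01, 0.25 and -0.22, with 95% intervals of -0.28 to 0.52, -1.11 to 0.52, -0.40 to 0.38, -0.36 to 0.87 and -0.87 to 0.43. The test did not call these 5 genes, and the intervals apply to the fit of all 20 libraries alone. Without the libraries high in Lars2, Hoxb5 and Hoxb9 were called higher in myometrium (-1.23, adjusted p = 0.00602, and -0.89, adjusted p = 0.0109) and Hoxb4 was not called (adjusted p = 0.379). Hoxb9 was also called with limma voom (-0.57, adjusted p = 0.0476). Without the libraries rich in yolk sac markers Hoxb4 was not called either (0.49, adjusted p = 0.145).

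**Figure D1:**
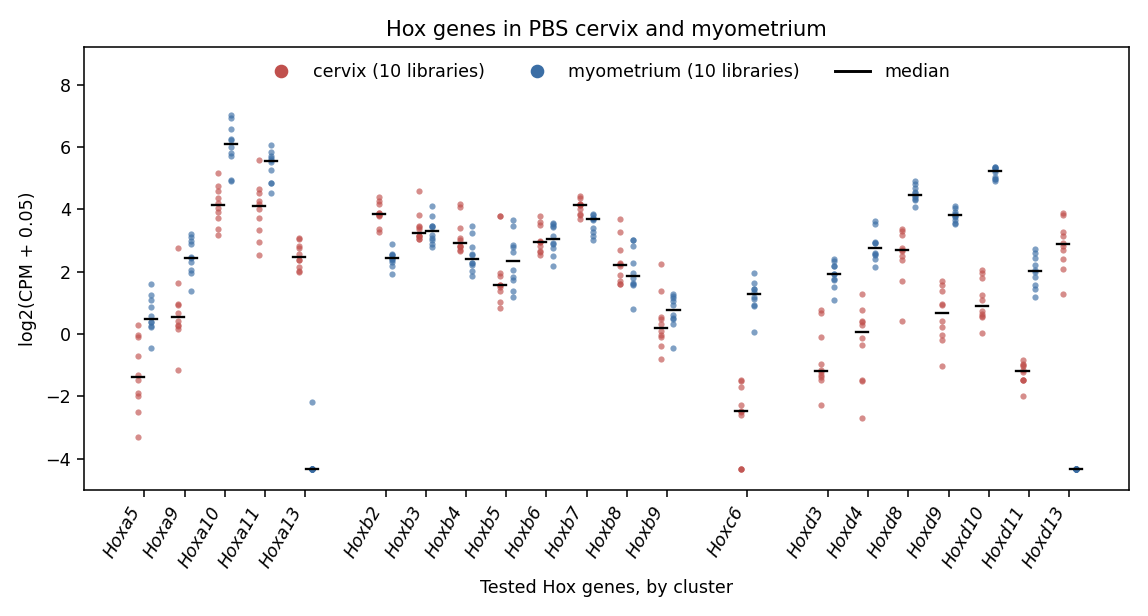
Levels of the 21 tested Hox genes as log2(CPM + 0.05) on the y axis, by cluster on the x axis, with 1 point per library (10 cervix, 10 myometrium) and a bar at the group median. Hoxa13 and Hoxd13 are high in cervix and at or near 0 in myometrium, the other cluster A, C and D genes are higher in myometrium, and most cluster B genes overlap.

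Regulators of squamous and secretory epithelium led the transcription factors higher in cervix. Trp63 (gene ID 22061, chr16:25683763-25892088), which encodes p63, stood at 173 to 548 CPM (median 290.0) in cervix and 0.174 to 1.22 CPM (median 0.491) in myometrium, with no overlap (log2 difference 9.10, SE 0.29, adjusted p = 3.6e-16). Its relative Trp73 stood at 2.63 to 10.5 CPM (median 4.93) and 0 to 0.779 CPM (median 0.22) (log2 difference 4.25, SE 0.41, adjusted p = 1.39e-08), and all 3 genes of the p53 family were called higher in cervix. Grhl3 (gene ID 230824, chr4:135541887-135573632), a grainyhead factor needed for epidermal barrier formation, stood at 37.1 to 208 CPM (median 83.4) in cervix with 1 count in myometrium, a ratio of 13272-fold (95% counting interval 2382 to 524230.0). Grhl1, which controls desmosomal genes, stood at 30.0 to 256 CPM (median 87.8) and 4.24 to 11.1 CPM (median 7.07) (log2 difference 4.05, SE 0.34, adjusted p = 1.65e-09). The AP-2 factors of ectoderm and epithelium were present in cervix, Tfap2a at 3.24 to 53.8 CPM (median 9.67) and Tfap2c at 8.39 to 31.1 CPM (median 12.5). In myometrium Tfap2a reached at most 0.347 CPM and Tfap2c 2.48 CPM, the latter in library 1. Foxn1, the factor known from thymic and hair epithelium, stood at 1.36 to 19.7 CPM (median 3.59) in cervix and at most 0.198 CPM in myometrium.

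The secretory epithelium was marked by Spdef (gene ID 30051, chr17:27714446-27731003), an ETS factor of goblet cells, at 57 to 195 CPM (median 94.9) in cervix. No myometrium library had a count of it, so that it was at least 4637-fold higher in cervix. Foxa2, the factor of uterine glands, overlapped between the tissues at 3.72 to 25.9 CPM (median 15.2) in cervix and 0.0974 to 12.8 CPM (median 1.29) in myometrium (log2 difference 2.50, SE 0.57, adjusted p = 0.000856). Its difference was 3.25 without myometrium library 4 and 4.01 without the 3 libraries rich in yolk sac markers. Among the more abundant factors, chosen after their values were seen, Ehf, an epithelial ETS factor, stood at 698 to 1663 CPM (median 1068) and 85.4 to 185 CPM (median 116) (log2 difference 3.04, SE 0.18, adjusted p = 5.83e-12), and Klf4, a factor of barrier formation, at 224 to 652 CPM (median 416) and 44.4 to 67.9 CPM (median 61) (log2 difference 2.84, SE 0.18, adjusted p = 1.77e-11). Both were well expressed in myometrium too, yet no library of one tissue entered the range of the other.

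Developmental regulators were found on both sides. Of 40 homeobox genes outside the Hox and other named families 13 were called higher in cervix and 12 in myometrium (median -0.11). These counts are near the shares of all tested genes, 28.0% and 26.1%. The larger differences were mostly in cervix, as 8 of these genes passed the 2-fold test there and 1 in myometrium. Pitx1 (gene ID 18740, chr13:55825044-55836190), a hindlimb factor, stood at 6.27 to 44.4 CPM (median 13.5) in cervix with no myometrium count, at least 705-fold higher. Isl1, a LIM homeodomain factor, stood at 3.03 to 13.6 CPM (median 6.22) in cervix with 1 count in myometrium, a ratio of 876-fold (95% counting interval 157 to 34649). The transcriptional coactivators Eya1 and Eya2 were also higher in cervix, with log2 differences of 3.86 (SE 0.30) and 2.41 (SE 0.15). Pax8, a factor of Müllerian epithelium, was higher in myometrium and stood at 17 to 50.0 CPM (median 25.9) in cervix and 34.1 to 116 CPM (median 72.3) in myometrium (log2 difference -1.46, SE 0.21, adjusted p = 5.43e-06). The forkhead gene Foxc1 stood at 26.1 to 61.4 CPM (median 37.3) and 3.13 to 8.62 CPM (median 4.28) (log2 difference 2.89, SE 0.21, adjusted p = 2.37e-10). Eya1, Eya2, Grhl1, Trp73, Tfap2c and Foxc1 were chosen after their values were seen.

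Fewer transcription factors were far higher in myometrium, and their differences were smaller. Hand2 (gene ID 15111, chr8:57320983-57324517), a progesterone-induced factor of uterine stroma, stood at 1.33 to 6.59 CPM (median 3.67) in cervix and 9.17 to 23.3 CPM (median 16.4) in myometrium (log2 difference -2.08, SE 0.24, adjusted p = 1.79e-07). Gata6, a zinc finger factor of endoderm and heart, stood at 0.353 to 5.89 CPM (median 2.63) and 7.05 to 16.2 CPM (median 13.2) (log2 difference -2.34, SE 0.33, adjusted p = 3.28e-06), and Glis3, a zinc finger factor, at 3.96 to 11.4 CPM (median 4.91) and 24.1 to 55.6 CPM (median 32.3) (log2 difference -2.45, SE 0.21, adjusted p = 2.36e-09). These 3 did not overlap between the tissues. Mycn, a growth-promoting relative of Myc, stood at 0.112 to 8.15 CPM (median 0.57) and 14 to 26.1 CPM (median 18.9) (log2 difference -3.75, SE 0.59, adjusted p = 1.36e-05); its highest cervix value was in R3, and without R3 the difference was -4.71. The chromatin protein Hmga2 and the helix-loop-helix factor Msc had log2 differences of -3.62 (SE 0.51) and -3.71 (SE 0.40), and Arnt2 of -2.56 (SE 0.44), with 1 high myometrium value of 38.9 CPM in library 1.

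The forkhead genes of insulin signalling differed in what carried them. Foxo1, a regulator of decidual cells that was chosen after its values were seen, stood at 25.7 to 71.4 CPM (median 34.8) in cervix and 71.2 to 204 CPM (median 128) in myometrium (log2 difference -1.66, SE 0.23, adjusted p = 2.05e-06). Foxo4 stood at 8.76 to 24.9 CPM (median 15.8) and 18.7 to 507 CPM (median 34.4) (log2 difference -2.68, SE 0.58, adjusted p = 0.00047), and its difference fell to -1.90 without myometrium library 4 and to -0.83 (adjusted p = 0.00135) without the 3 libraries rich in yolk sac markers. Wt1, which marks mesothelium and uterine stroma, stood at 5.51 to 23.8 CPM (median 14) and 34 to 69.2 CPM (median 49.5) (log2 difference -1.82, SE 0.20, adjusted p = 9.95e-08), and Emx2, a homeobox gene needed for the Müllerian duct, differed little, at 14.9 to 35.3 CPM (median 20.8) and 21.4 to 42.6 CPM (median 29.9) (log2 difference -0.51, SE 0.16, adjusted p = 0.00839).

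Among extracellular proteins more genes were higher in myometrium. Of 496 tested, 246 were called higher in myometrium and 101 in cervix, with a median log2 difference of -0.64, and 100 and 61 passed the 2-fold test. The mucus proteins of the cervical canal went the other way: 7 of 11 tested mucins, trefoil factors and mucus proteins were called higher in cervix, all 7 past the 2-fold test, and 2 higher in myometrium (median 4.90). Muc5b (gene ID 74180, chr7:141839059-141873089), the gel-forming mucin of the endocervix, stood at 4337 to 15389 CPM (median 10864) in cervix and 0.42 to 2.29 CPM (median 1.11) in myometrium (log2 difference 12.98, SE 0.45, adjusted p = 9.58e-16). Tff1 (gene ID 21784, chr17:31161395-31165060), a small peptide secreted with mucins, stood at 595 to 3051 CPM (median 1260.0) in cervix with 1 count in myometrium, a ratio of 209527-fold (95% counting interval 37606 to 8275920.0). Clca1, a secreted protease of goblet cells, stood at 1792 to 7413 CPM (median 3856) and 0.779 to 4.24 CPM (median 2.3) (log2 difference 10.86, SE 0.38, adjusted p = 9.58e-16). Muc5ac was far less abundant than Muc5b in CPM, at 8.05 to 60.1 CPM (median 15.5) in cervix, with a ratio of 892-fold (95% counting interval 305 to 4329.8). The cell-surface mucin Muc1, chosen after its values were seen, was higher in myometrium, at 11.5 to 27.9 CPM (median 14.7) in cervix and 22.8 to 60.9 CPM (median 43.3) in myometrium (log2 difference -1.43, SE 0.18, adjusted p = 8.55e-07). Agr2, a disulfide isomerase needed to fold mucins, stood at 305 to 786 CPM (median 507) and 0.673 to 5.96 CPM (median 1.8) (log2 difference 7.95, SE 0.39, adjusted p = 3.44e-13).

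Protease inhibitors and proteases fell on both sides. Spink5, which restrains the kallikreins that shed squamous cells, stood at 191 to 1883 CPM (median 669) in cervix. It was at 0 in most myometrium libraries and reached 0.868 CPM in R3. Serpinb7 (4.86 to 38.8 CPM (median 12.4) in cervix) and Serpinb3a (1.05 to 77 CPM (median 11)) had no myometrium count, and were at least 749-fold and 1246-fold higher, although Serpinb3a has near-identical copies whose reads may have been split, so its value is uncertain. The uterine gland proteases Prss28 and Prss29 were higher in myometrium: Prss29 stood at 0 to 1.57 CPM (median 0) in cervix and 5.27 to 70.9 CPM (median 29.3) in myometrium, and Prss28 at 0 to 0.418 CPM (median 0) and 1.68 to 16.5 CPM (median 7.21). The highest cervix values of both were in R3, without which their log2 differences went from -7.08 to -8.02 and from -7.35 to -8.83. Spink8 stood at 0 to 0.815 CPM (median 0.107) and 5.94 to 22.4 CPM (median 16.9) (log2 difference -6.12, SE 0.48, adjusted p = 6.51e-10). In all, 8 of 30 serpins passed the 2-fold test in each direction, and of 32 kallikreins, cathepsins and other proteases 7 did so in cervix and 9 in myometrium.

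Plasma and complement proteins were mostly higher in myometrium. Of 22 apolipoproteins and plasma proteins 15 were called higher in myometrium and 1 in cervix (median -2.27), but this group moved with the libraries rich in yolk sac markers. Afp, the alpha-fetoprotein of yolk sac and fetal liver, stood at 0 to 32.6 CPM (median 2.12) in cervix and 10.5 to 11310.2 CPM (median 353) in myometrium (log2 difference -8.56, SE 1.48, adjusted p = 4.74e-05), and at -4.84 on the log2 scale without libraries 4, 8 and R3. Without these 3 libraries the log2 difference was -3.41 for Apoa1, -4.92 for Apoa4, -2.78 and -3.44 for the fibrinogen chains Fga and Fgb, -3.75 for Kng1 and -2.97 for Igf2. With them these values were -7.33, -8.65, -6.24, -7.14, -6.27 and -6.23. The 6 genes were called with and without the 3 libraries, and each difference was smaller without them. How much of the remaining difference is of yolk sac source was not tested.

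Complement genes were mostly higher in myometrium. Of 26 complement and C1q-related genes 18 were called higher in myometrium and 3 in cervix (median -1.36). Without the 3 libraries rich in yolk sac markers 18 and 2 were called (median -1.41), and the difference of 2 of the 26 genes moved by more than 1.5-fold. C3, the central complement protein and an estrogen-induced secretion of the uterus, stood at 258 to 3355 CPM (median 542) in cervix and 5842 to 10059.7 CPM (median 7941) in myometrium (log2 difference -3.17, SE 0.41, adjusted p = 1.23e-06), against -3.21 without the 3 libraries. Cfb, which forms the alternative pathway convertase and was chosen after its values were seen, was higher in cervix at 95.9 to 472 CPM (median 185) against 33.8 to 117 CPM (median 64.7) (log2 difference 1.72, SE 0.24, adjusted p = 3.73e-06). Cfd, the adipsin of fat cells, stood at 8.66 to 97.9 CPM (median 39.1) in cervix with 2 counts in the whole myometrium group, a ratio of 2774-fold (95% counting interval 768 to 22914).

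Secreted growth factors were divided by family. Of 10 tested FGF ligands and binding proteins 4 were called higher in cervix, all past the 2-fold test, and 3 higher in myometrium (median 0.45). The stromal ligands Fgf10 and Fgf7, which act on epithelial FGF receptors, stood at 2.6 to 17.9 CPM (median 5.24) and 6.7 to 100.1 CPM (median 33.2) in cervix and at 0.112 to 2.17 CPM (median 1.13) and 2.24 to 19.9 CPM (median 7.53) in myometrium (log2 differences 2.77, SE 0.45, and 2.08, SE 0.43). Fgf10 did not overlap between the tissues and Fgf7 did. The carrier Fgfbp1 stood at 17.8 to 236 CPM (median 97.9) in cervix and at most 1.04 CPM in myometrium. Of 9 insulin-like growth factors and binding proteins 7 were called higher in myometrium and 1 in cervix (median -1.0). The gene higher in cervix was Igf1, at 242 to 1118 CPM (median 519) against 74.5 to 390.4 CPM (median 162) (log2 difference 1.59, SE 0.31, adjusted p = 0.000177). Its binding proteins stood the other way: Igfbp2 at 30.9 to 127 CPM (median 73) in cervix and 301 to 1545 CPM (median 749.5) in myometrium (log2 difference -3.53, SE 0.31, adjusted p = 3.12e-09), Igfbp6 at 12.8 to 113 CPM (median 40.7) and 106 to 451 CPM (median 188) (log2 difference -2.20, SE 0.33, adjusted p = 7.21e-06), and Igfbp3 at 30.7 to 49.1 CPM (median 40.7) and 72 to 358 CPM (median 100.03) (log2 difference -1.63, SE 0.24, adjusted p = 4.84e-06). These growth factor genes were chosen after their values were seen, apart from Igf2.

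The Wnt ligands called past 2-fold were all higher in cervix (3 of 9, with 4 and 2 called by the plain test). Wnt4 (gene ID 22417, chr4:137277635-137299501), which the Müllerian duct needs to form, stood at 27.1 to 109 CPM (median 43.4) in cervix and 6.24 to 31.2 CPM (median 15) in myometrium (log2 difference 1.69, SE 0.27, adjusted p = 2.07e-05). Wnt3a stood at 1.51 to 3.69 CPM (median 2.32) in cervix with no myometrium count, at least 94.1-fold higher, and Wnt10a at 2.51 to 8.54 CPM (median 4.98) in cervix and at most 2.47 CPM in myometrium, in library 4. Wnt5a was higher in myometrium with overlap (log2 difference -0.69, SE 0.15, adjusted p = 0.000582). The secreted Wnt antagonists were split: Sfrp2 stood at 4.12 to 16.2 CPM (median 9.18) in cervix and 1.19 to 3.78 CPM (median 2.12) in myometrium (log2 difference 2.12, SE 0.22, adjusted p = 3.59e-08), Sfrp4 at 19.4 to 98.8 CPM (median 65.3) and 328 to 728 CPM (median 459.7) (log2 difference -2.98, SE 0.24, adjusted p = 1.21e-09), and Frzb at 1.06 to 11.6 CPM (median 4.59) and 16.1 to 32.6 CPM (median 25.2) (log2 difference -2.40, SE 0.29, adjusted p = 5.14e-07). Sfrp1 was higher in cervix by 1.95 on the log2 scale, and by 2.55 without myometrium R3, whose 36.7 CPM was the only myometrium value inside the cervix range. Lgr5, the Wnt-dependent receptor of epithelial stem cells, stood at 0.582 to 10.05 CPM in cervix and 0.0701 to 0.893 CPM in myometrium. The Wnt pathway genes other than Wnt4 and Wnt5a were chosen after their values were seen.

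Of other signals chosen after their values were seen, the alarmin Il33 stood at 147 to 329.5 CPM (median 189) in cervix and 3.02 to 9.64 CPM (median 6.38) in myometrium (log2 difference 5.05, SE 0.22, adjusted p = 3.91e-14) and the eosinophil chemokine Ccl11 at 4.42 to 98.8 CPM (median 37.8) and 1.45 to 6.45 CPM (median 2.29) (log2 difference 3.82, SE 0.45, adjusted p = 2.9e-07). Il33 did not overlap. On the myometrium side stood Csf1, the macrophage growth factor, at 14.7 to 339 CPM (median 28) and 273 to 1078 CPM (median 713) (log2 difference -3.41, SE 0.53, adjusted p = 1.22e-05, -4.35 without cervix R3), and the activin binding protein Fst at 1.54 to 33.4 CPM (median 5.28) and 30.7 to 368 CPM (median 129) (log2 difference -4.08, SE 0.60, adjusted p = 6.34e-06). Tgfb2 stood at 35 to 521 CPM (median 76.4) and 306 to 1250.0 CPM (median 568) (log2 difference -2.50, SE 0.44, adjusted p = 5.87e-05, -3.10 without cervix R3). For Csf1 and Tgfb2 the highest cervix library was R3, and it lay inside the myometrium range. The enkephalin precursor Penk stood at 5.2 to 105 CPM (median 31.8) and 168 to 629.8 CPM (median 420.3) (log2 difference -3.44, SE 0.42, adjusted p = 4.96e-07).

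Matrix genes were higher in myometrium except for the collagens as a family. Of 65 basement membrane and elastic matrix genes 42 were called higher in myometrium and 5 in cervix (median -0.88), while of 35 collagens 9 were called in each direction (median -0.01). The collagen counts are near the shares of all tested genes, 28.0% higher in cervix and 26.1% in myometrium. Col1a1, the main fibrillar collagen chain, stood at 466 to 3255 CPM (median 1949) in cervix and 610.4 to 4547 CPM (median 1678) in myometrium, with a log2 difference of -0.05 and a 95% interval of -0.72 to 0.63. Fibronectin, Fn1, stood at 288 to 2078 CPM (median 1129.9) and 3647 to 9894 CPM (median 5860.4) (log2 difference -2.52, SE 0.32, adjusted p = 6.91e-07), the collagen crosslinking enzyme Lox at 32.4 to 99.5 CPM (median 52.9) and 200.2 to 668 CPM (median 335) (log2 difference -2.73, SE 0.22, adjusted p = 1.13e-09), and periostin, Postn, at 362 to 3494 CPM (median 1541) and 2737 to 8143 CPM (median 5774) (log2 difference -1.64, SE 0.34, adjusted p = 0.000321). Hyaluronan synthesis went the other way. Has2, a synthase of the hyaluronan that fills the ripening cervix, stood at 141 to 534 CPM (median 440.4) in cervix and 8.07 to 27.4 CPM (median 12.5) in myometrium (log2 difference 4.70, SE 0.28, adjusted p = 7.24e-12), and Has3 at 33.6 to 110.3 CPM (median 70.9) and 4.84 to 15.4 CPM (median 7.32) (log2 difference 3.16, SE 0.26, adjusted p = 1.23e-09). No cervix library of Has2 or Has3 fell into the myometrium range. Col1a1, Fn1, Lox, Postn and Has3 were chosen after their values were seen.

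**Figure D2:**
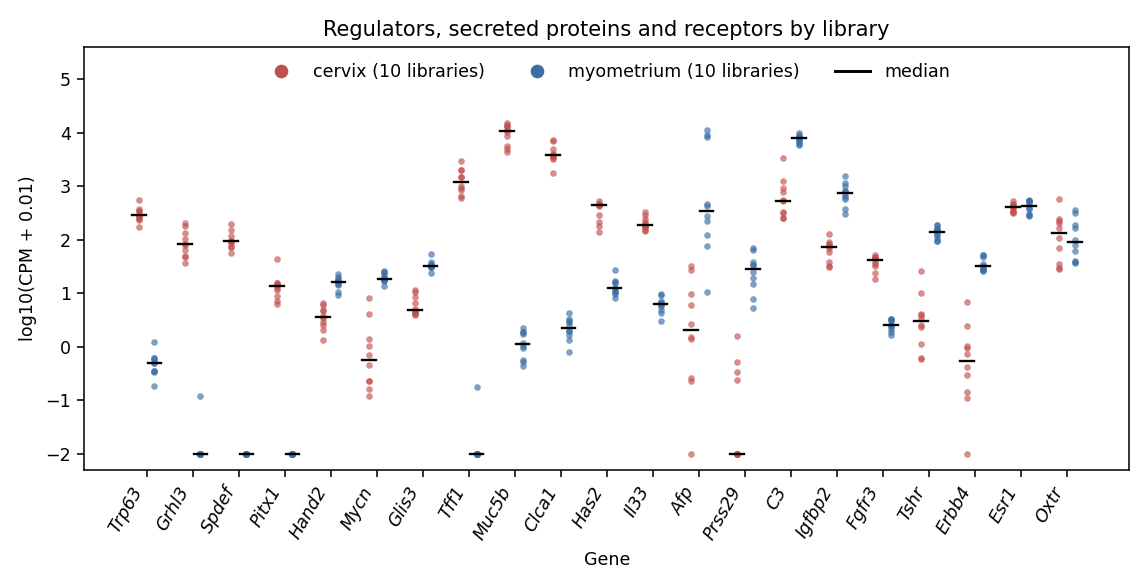
Levels of 21 regulators, secreted proteins and receptors as log10(CPM + 0.01) on the y axis, 1 point per library (10 cervix, 10 myometrium), with a bar at the group median. Trp63 to Pitx1, Tff1 to Il33 and Fgfr3 lie higher in cervix, Hand2 to Glis3, Afp to Igfbp2, Tshr and Erbb4 lie higher in myometrium, and Esr1 and Oxtr overlap.

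Of 417 tested receptors 183 were called higher in myometrium and 104 in cervix (median log2 difference -0.32), with 59 and 52 past the 2-fold test. Ephrins, the ligands of Eph receptors, are counted among them. The receptors of estrogen and progesterone overlapped between the tissues. Esr1, estrogen receptor alpha, stood at 326 to 538 CPM (median 408) in cervix and 277 to 569 CPM (median 433) in myometrium, with a log2 difference of -0.08 and a 95% interval of -0.36 to 0.20. The progesterone receptor gene Pgr stood at 449 to 1223 CPM (median 763) and 274 to 743 CPM (median 423) (log2 difference 0.73, SE 0.20, adjusted p = 0.00433). Pgr was called higher in cervix, and Esr1 was not called. Rxfp1, the relaxin receptor, was not called (-0.09, 95% interval -0.43 to 0.26), and Prlr, the prolactin receptor, was higher in cervix at 72.6 to 213 CPM (median 182) against 44.6 to 155 CPM (median 91.3) (log2 difference 0.73, SE 0.23, adjusted p = 0.0109). The call of Pgr was lost without the libraries high in Lars2 (0.55, adjusted p = 0.0591), and that of Prlr without the libraries rich in yolk sac markers (0.58, adjusted p = 0.0663). Of 36 steroid and nuclear receptors 15 were called higher in cervix and 5 in myometrium (median 0.25), among them Esrrg at 20.6 to 49 CPM (median 32) and 0 to 2.74 CPM (median 0.784) (log2 difference 5.06, SE 0.41, adjusted p = 8.64e-10) and the retinoic acid receptor Rarg, chosen after its values were seen, at 35.9 to 79.8 CPM (median 51.3) and 14.3 to 28.6 CPM (median 20.2) (log2 difference 1.43, SE 0.16, adjusted p = 2.04e-07).

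Among genes of contraction, Oxtr and Gja1 were not called, whereas most prostanoid receptors were higher in myometrium. Oxtr, the oxytocin receptor, ranged widely in both tissues, at 28 to 584 CPM (median 138) in cervix and 37.7 to 369 CPM (median 90.3) in myometrium, and its log2 difference of 0.28 had a 95% interval of -0.79 to 1.35. Gja1, the gap junction connexin 43 that couples muscle cells at birth, stood at 297 to 1216 CPM (median 544) and 161 to 893 CPM (median 394) (log2 difference 0.56, 95% interval -0.06 to 1.18). Gja1 passed as higher in cervix without myometrium library 8 (0.76, adjusted p = 0.0432) and with limma voom (0.88, adjusted p = 0.0269), and the sign of Oxtr turned without cervix library 8 (-0.17). With the label number as a block in edgeR, over 18 libraries, Gja1 was called higher in cervix (0.54, adjusted p = 0.0199). In that fit Oxtr stood at -0.15 and was not called (adjusted p = 0.384). Of 8 prostanoid receptors 7 were called higher in myometrium and none in cervix (median -1.19). Ptgdr, the prostaglandin D2 receptor, stood at 0.127 to 1.36 CPM (median 0.329) in cervix and 3.91 to 17.6 CPM (median 9.48) in myometrium (log2 difference -4.40, SE 0.35, adjusted p = 9.31e-10), Ptger2 at 0.0441 to 1.15 CPM (median 0.853) and 2.73 to 7.23 CPM (median 4.98) (log2 difference -2.75, SE 0.33, adjusted p = 4.67e-07), Ptger3, a contractile PGE2 receptor, at 2.03 to 17.2 CPM (median 10.9) and 8.3 to 49.8 CPM (median 34.2) (log2 difference -1.52, SE 0.32, adjusted p = 0.00034), and Ptgfr, the PGF2 alpha receptor, at 0.884 to 3.97 CPM (median 2.22) and 1.85 to 4.57 CPM (median 3.97) (log2 difference -0.72, SE 0.27, adjusted p = 0.0262). Ptgdr and Ptger2 did not overlap, Ptger3 and Ptgfr did, and the call of Ptgfr was lost without cervix library 4 (-0.61, adjusted p = 0.0518) and without the libraries high in Lars2 (-0.46, adjusted p = 0.234).

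The vasoactive receptors included a pair with opposite directions. The angiotensin receptor Agtr1a stood at 1.15 to 4.19 CPM (median 3.34) in cervix and 6.39 to 17.5 CPM (median 7.85) in myometrium (log2 difference -1.91, SE 0.28, adjusted p = 5.55e-06), and Agtr2 at 6.52 to 33.8 CPM (median 18.3) and 1.35 to 7.01 CPM (median 3.66) (log2 difference 2.29, SE 0.32, adjusted p = 2.84e-06). The endothelin receptor Ednrb stood at 9.43 to 60.1 CPM (median 19.7) and 69.4 to 151 CPM (median 113) (log2 difference -2.17, SE 0.28, adjusted p = 8.72e-07). Npr3, the clearance receptor of natriuretic peptides, differed by -2.20 on the log2 scale, -1.56 without myometrium library 4 and -0.62 (adjusted p = 0.0232) without libraries 4, 8 and R3. The 5 genes Ptger2, Agtr1a, Agtr2, Ednrb and Npr3 were chosen after their values were seen.

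Single receptors of several families were far higher in cervix. Fgfr3 (gene ID 14184, chr5:33721724-33737068), a receptor of growth factors of the FGF family, stood at 18.3 to 52.4 CPM (median 41.9) in cervix and 1.69 to 3.34 CPM (median 2.56) in myometrium (log2 difference 3.87, SE 0.19, adjusted p = 3.94e-13), whereas Fgfr2 was higher in myometrium at 183 to 386 CPM (median 290.4) against 96.9 to 189 CPM (median 113) in cervix (log2 difference -1.21, SE 0.15, adjusted p = 4.98e-07). Ltb4r2, a leukotriene receptor of keratinocytes, stood at 2.67 to 9.28 CPM (median 5.02) in cervix and at most 0.322 CPM in myometrium. The Wnt receptor Fzd10 stood at 8.06 to 30.1 CPM (median 13.3) and 0.0868 to 0.554 CPM (median 0.217) (log2 difference 5.68, SE 0.32, adjusted p = 2.36e-12), the VIP receptor Vipr1 at 12 to 35.7 CPM (median 22.8) and 0.794 to 2.48 CPM (median 1.22) (log2 difference 4.04, SE 0.23, adjusted p = 2.57e-12), and the activin receptor Acvr1c at 2.32 to 8.88 CPM (median 5.68) and 0 to 0.434 CPM (median 0.138) (log2 difference 5.02, SE 0.45, adjusted p = 5.09e-09). Apart from Fgfr2, none of these overlapped. Their families were not higher as a whole: of 20 Wnt receptors 8 were called higher in cervix and 3 in myometrium (median 0.03), and of 23 peptide hormone receptors 6 and 8 (median -0.09). Gpr20, Adgrf2 and the ephrin Efna3, a ligand counted with its receptors, had log2 differences of 4.96, 4.73 and 4.49 (SE 0.47, 0.52 and 0.54), also without overlap. Of 18 Eph receptors and ephrins 9 were called higher in cervix, 7 of them past 2-fold, and 4 higher in myometrium, none past 2-fold (median 0.65).

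On the myometrium side Tshr, the thyrotropin receptor (gene ID 22095, chr12:91400993-91540509), stood at 0.589 to 26.7 CPM (median 3.02) in cervix and 93.7 to 189 CPM (median 140.4) in myometrium (log2 difference -4.69, SE 0.54, adjusted p = 2.04e-07, -5.50 without cervix R3). Erbb4 (gene ID 13869, chr1:68031884-69108576), a receptor of neuregulins and heparin-binding EGF, stood at 0 to 6.9 CPM (median 0.566) and 26.1 to 53.2 CPM (median 31.9) (log2 difference -4.95, SE 0.58, adjusted p = 2.87e-07, -5.98 without cervix R3), and Adgrf1 at 0.233 to 8.68 CPM (median 0.556) and 12.4 to 33.3 CPM (median 26.2) (log2 difference -3.97, SE 0.53, adjusted p = 1.7e-06, -4.91 without cervix R3). In all 3 the highest cervix library was R3, and it still lay below every myometrium library. Pth2r, a receptor of a parathyroid hormone-related neuropeptide, stood at 0 to 0.384 CPM (median 0.0817) and 5.26 to 16 CPM (median 10.7) (log2 difference -6.47, SE 0.40, adjusted p = 1.16e-11), and the interleukin 5 receptor Il5ra at 1.47 to 8.15 CPM (median 3.66) and 18.1 to 43.5 CPM (median 30.0) (log2 difference -2.91, SE 0.24, adjusted p = 1.08e-09). Tnfrsf11b, the decoy receptor osteoprotegerin, and Adgrg3 had log2 differences of -3.04 (SE 0.37) and -2.86 (SE 0.29). Rxfp2 was higher in myometrium with overlap (log2 difference -3.03, SE 0.47, adjusted p = 1.32e-05), and Tnfrsf9, a T cell costimulator, stood at 0 to 1.63 CPM (median 0.167) and 2.02 to 19.6 CPM (median 3.44) (log2 difference -4.12, SE 0.60, adjusted p = 4.96e-06, -4.88 without cervix library 8).

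By family, integrins and immune receptors leaned towards myometrium. Of 25 integrins 16 were called higher in myometrium and 2 in cervix (median -0.95), of 23 pattern recognition receptors 19 and none (median -0.92), and of 17 chemokine receptors 10 and 1 (median -0.87). Itgb1, the common beta chain, stood at 459.8 to 879.8 CPM (median 728) in cervix and 1334 to 2035 CPM (median 1749.7) in myometrium (log2 difference -1.33, SE 0.14, adjusted p = 3.96e-08), and the collagen-binding Itga1 at 19.2 to 133 CPM (median 82.5) and 218 to 755 CPM (median 453) (log2 difference -2.44, SE 0.28, adjusted p = 1.85e-07). Itga6, the alpha chain of the hemidesmosome integrin, was higher in cervix at 388 to 788 CPM (median 549.9) against 144 to 268 CPM (median 175) (log2 difference 1.54, SE 0.14, adjusted p = 3.55e-09). These 3 were chosen after their values were seen, and none overlapped.

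**Figure D3:**
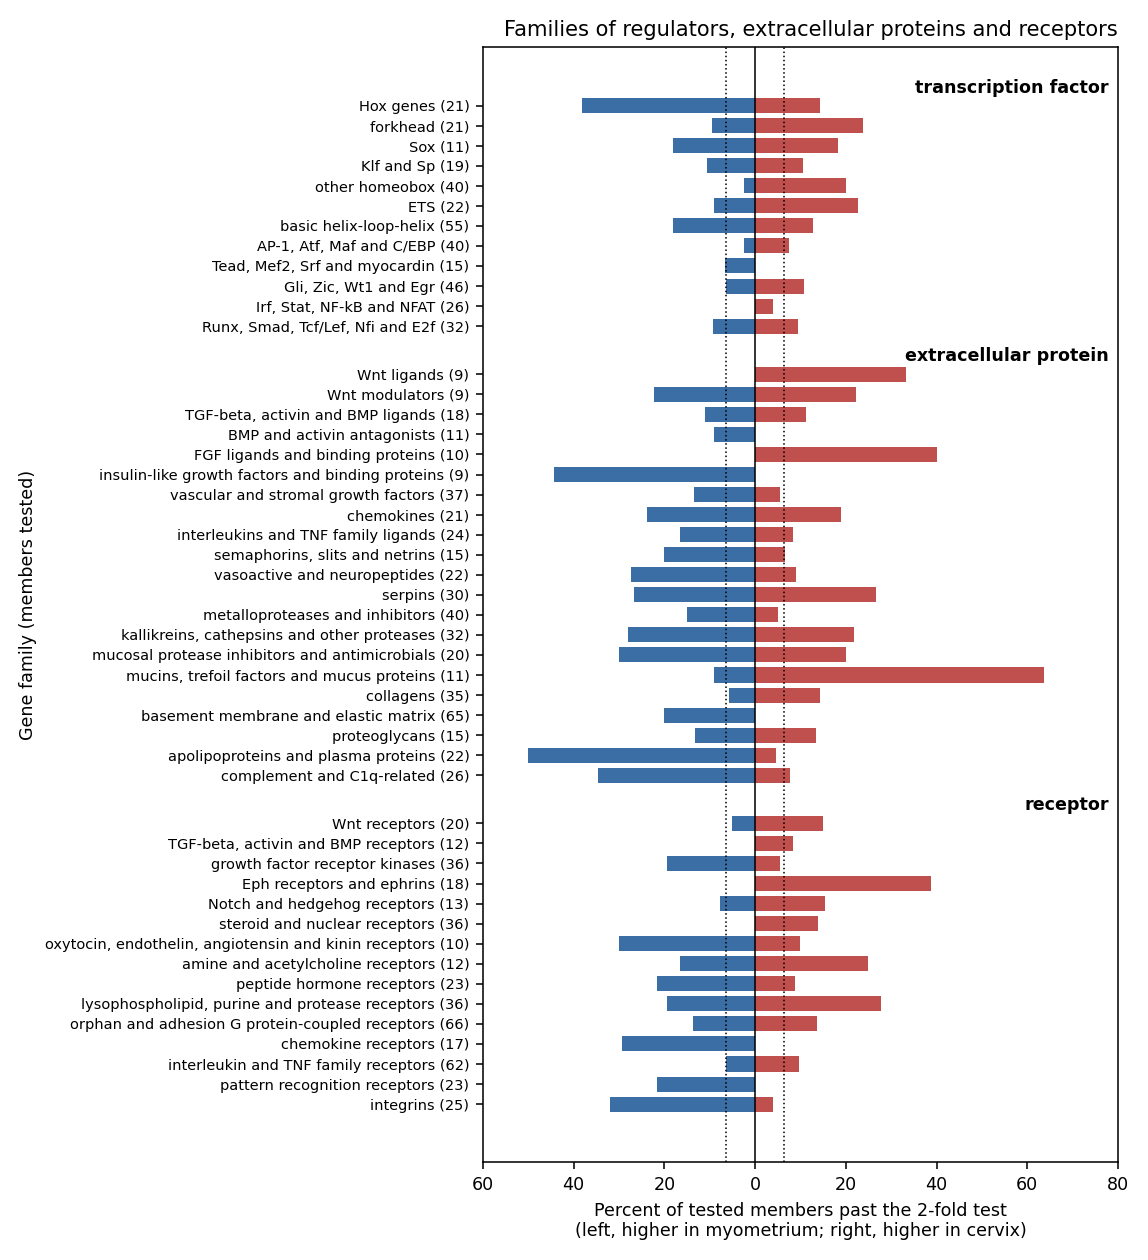
Percent of tested members of each gene family past the 2-fold test, higher in myometrium to the left and in cervix to the right. Families with at least 9 tested members are shown (number in brackets), apart from the family of Pax8, Eya1 and Eya2. That family, with 9 tested members, had 44.4% past the test in cervix and 11.1% in myometrium. On the right it would lie between mucus proteins (63.6%) and the FGF family (40.0%). Dotted lines mark 6.37% and 6.28% of all tested genes; of the families shown, mucus proteins, FGF and Eph families extend furthest to the right and plasma proteins, insulin-like growth factor genes, Hox genes and complement to the left.

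Scaled to the length of the gene's exons, levels could be set side by side within a tissue. Among the transcription factors Ehf had the highest mean level in cervix, 227 CPM per kilobase, before Hif1a (172) and Klf4 (138). In myometrium these 3 stood at 27.7, 67.5 and 19.2 CPM per kilobase. Among extracellular proteins Tff1 (2019 CPM per kilobase) and Clca1 (1186) led in cervix, and Sparc (1731), Postn (1628), Dcn (1589) and C3 (1513) in myometrium. Among receptors Itgb1 led in both tissues, at 180.1 CPM per kilobase in cervix and 453 in myometrium. It was followed in cervix by the decoy receptor Il1r2 (146), Itga6 (125) and Pgr (116). Il1r2, chosen after its values were seen, stood at 14.4 CPM per kilobase in myometrium (log2 difference 3.35, SE 0.17, adjusted p = 5.75e-13).

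The lists of cell type markers sum RNA of the same libraries and include genes named above, so they are no independent evidence of the division. The summed basal squamous markers lay between 6460 and 23022 CPM in cervix and between 1188 and 1681 CPM in myometrium, and the suprabasal ones between 7025 and 78157 CPM and between 44.8 and 111 CPM. Of the basal markers Krt5, Krt14, Krt15, Trp63 and Col17a1 each reached at most 6.39 CPM in any myometrium library. The basal sums of myometrium thus came from the other members, of which Itga6 held 144 to 268 CPM. On this list 3 of the 10 markers were not called. Columnar and glandular markers summed to 9083 to 21180 CPM and 2835 to 6688 CPM, but Muc5b alone held 4337 to 15389 CPM of the cervix sums. Without Muc5b the sums overlapped, at 3779 to 8075 CPM and 2833 to 6686 CPM. By number the markers were split, with 7 of 18 called higher in cervix and 6 in myometrium (median 0.34). Krt8, a keratin of simple epithelium, was higher in myometrium at 265 to 739.8 CPM (median 414) against 123 to 414 CPM (median 236) (log2 difference -0.70, SE 0.23, adjusted p = 0.0156), as was Prom1, a protein of luminal membranes, at 944 to 2477 CPM (median 2022) against 97.3 to 465 CPM (median 183) (log2 difference -3.22, SE 0.26, adjusted p = 8.78e-10). RNA of simple epithelial genes was thus present in the libraries of both tissues. Krt8, chosen after its values were seen, was not called without the libraries rich in yolk sac markers (-0.47, adjusted p = 0.111) or without those high in Lars2 (-0.62, adjusted p = 0.0735).

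Marker genes of vessels and macrophages were higher in myometrium. Of 10 endothelial markers 9 were called higher in myometrium (median -1.45), and Pecam1 stood at 39.4 to 107 CPM (median 58.1) in cervix and 147 to 208 CPM (median 161) in myometrium (log2 difference -1.45, SE 0.14, adjusted p = 2.63e-08). All 5 lymphatic markers were (median -2.35), among them the hyaluronan receptor Lyve1 at 10.4 to 40.9 CPM (median 24.5) and 123 to 219 CPM (median 176) (log2 difference -2.78, SE 0.20, adjusted p = 1.96e-10) and the VEGF-C receptor Flt4 at 4.07 to 17.5 CPM (median 6.53) and 29.2 to 63 CPM (median 45.9) (log2 difference -2.55, SE 0.22, adjusted p = 2.33e-09). Neither Pecam1, Lyve1 nor Flt4 overlapped. Of 13 macrophage and monocyte markers 12 were called higher in myometrium (median -1.52), with Lyz2 at 31.5 to 158 CPM (median 101) and 213 to 554 CPM (median 333) (log2 difference -1.98, SE 0.25, adjusted p = 7.56e-07) and C1qb at 8.18 to 42.6 CPM (median 21.7) and 55.5 to 142 CPM (median 74.5) (log2 difference -1.91, SE 0.26, adjusted p = 1.78e-06). Stromal fibroblast markers leaned the same way, 9 of 14 higher in myometrium and 1 in cervix, none past 2-fold (median -0.86). Cd3e, a gene of T cells, was near the limit of detection in both tissues and did not exceed 0.732 CPM in any library.

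Most fat markers were higher in cervix. Of 7 adipocyte markers 5 were called higher in cervix and none lower (median 2.35), with adiponectin, Adipoq, at 3.66 to 37.2 CPM (median 19.2) in cervix and 3 counts in the whole myometrium group, a ratio of 813-fold (95% counting interval 278 to 3945). Retn, resistin, stood at 1.96 to 17.6 CPM (median 7.32) with no myometrium count, at least 311-fold higher. Of 8 Schwann cell and neuron markers 4 were higher in cervix and 1 in myometrium (median 0.91): the glial gene Cdh19 (log2 difference 4.33, SE 0.44, adjusted p = 2.93e-08) was higher in cervix and Uchl1 (log2 difference -2.49, SE 0.20, adjusted p = 1.13e-09) in myometrium. Of 7 mesothelial markers 6 were higher in myometrium (median -1.82), with Msln at 0 to 2.93 CPM (median 0.407) in cervix and 7.84 to 190.1 CPM (median 24.1) in myometrium (log2 difference -6.16, SE 0.70, adjusted p = 1.73e-07, -4.88 without the libraries rich in yolk sac markers). The mesothelial list's exception, Bnc1, which squamous cells also express, was higher in cervix at 48.1 to 104 CPM (median 76) against 0 to 4.86 CPM (median 1.54) (log2 difference 5.28, SE 0.43, adjusted p = 1.03e-09, 6.02 without the same libraries). Of 7 skeletal muscle markers 2 were called higher in cervix and 1 in myometrium (median 0.59). Titin, Ttn, was called higher in cervix (log2 difference 3.75, SE 0.86, adjusted p = 0.000853) and stood at 840.1 CPM in library 2, without which the difference was 2.54. The cartilage and bone list, whose sum did not exceed 2.8 CPM in any library, had no tested member.

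**Figure D4:**
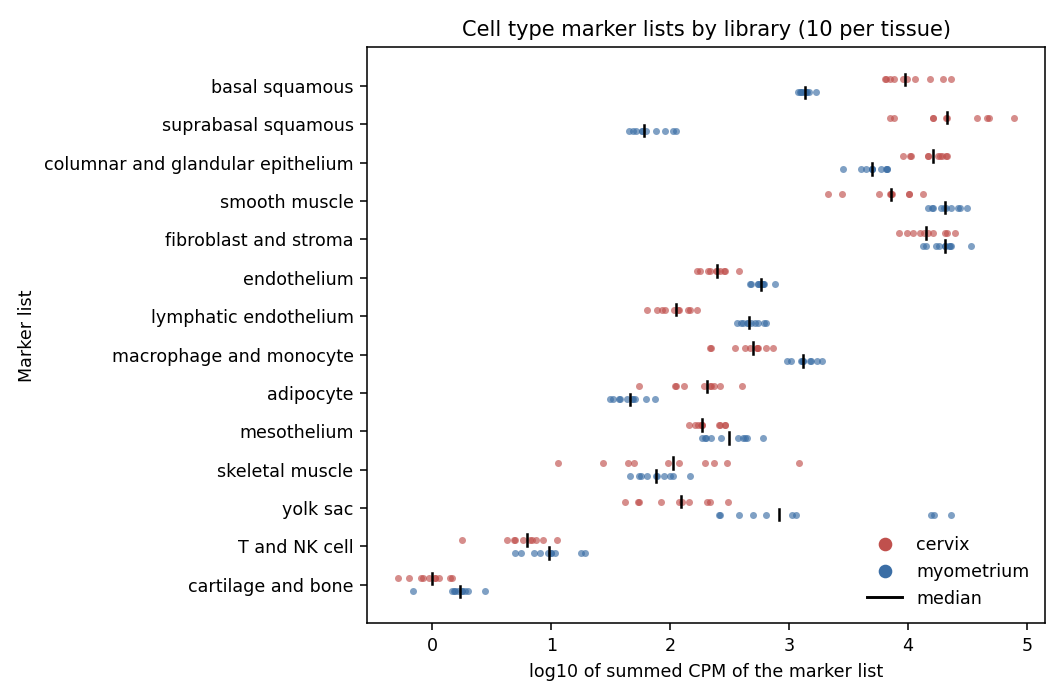
Log10 of the summed CPM of each marker list on the x axis, 1 point per library (10 cervix, 10 myometrium) and a bar at the median. Squamous lists lie higher in cervix and smooth muscle, endothelial and macrophage lists higher in myometrium, and 3 myometrium libraries lie apart on the yolk sac list.

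Several pathways crossed the division between epithelium and muscle. Of 30 junction genes of epithelium 21 were called higher in cervix and 2 in myometrium (median 1.76). The desmosomal protein Dsp stood at 1648 to 11488 CPM (median 3521) in cervix and 111 to 198 CPM (median 158) in myometrium (log2 difference 5.0, SE 0.32, adjusted p = 2.62e-11), the hemidesmosomal collagen Col17a1 at 191 to 890.1 CPM (median 433) and 0.417 to 1.37 CPM (median 1.05) (log2 difference 8.87, SE 0.31, adjusted p = 9.53e-16), and the desmosomal cadherin Dsc3 at 156 to 615 CPM (median 313) and 0 to 0.785 CPM (median 0.105) (log2 difference 10.77, SE 0.50, adjusted p = 1.41e-13). Cldn8, a tight junction claudin, was higher in myometrium at 14.6 to 44.9 CPM (median 27.3) against 0.466 to 9.77 CPM (median 1.71) (log2 difference -3.33, SE 0.43, adjusted p = 1.13e-06). Of 18 further genes of the cornified envelope and barrier 16 were higher in cervix and none lower (median 5.22). Dsp and Cldn8 were chosen after their values were seen.

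Retinoid genes fell on both sides. Of 15, 7 were called higher in cervix and 5 in myometrium (median 0.33), with 5 past the 2-fold test in each direction. The binding proteins Crabp2 and Crabp1, which carry retinoic acid in the cell, were higher in cervix: Crabp2 stood at 40.2 to 278 CPM (median 141) in cervix and 8.47 to 21 CPM (median 10.8) in myometrium (log2 difference 3.41, SE 0.30, adjusted p = 3.91e-09), and Crabp1 at 1.88 to 21.9 CPM (median 6.79) and 0 to 0.21 CPM (median 0) (log2 difference 7.0, SE 0.60, adjusted p = 2.36e-09). The enzymes that make retinoic acid were split. Aldh1a3 was higher in cervix at 4.49 to 43.3 CPM (median 8.23) against 0.348 to 5.26 CPM (median 1.11) (log2 difference 3.18, SE 0.49, adjusted p = 1.09e-05), Aldh1a2 was higher in myometrium at 227 to 585 CPM (median 336) against 35 to 313 CPM (median 97.5) (log2 difference -1.63, SE 0.31, adjusted p = 0.000112), and Rdh10, which makes their substrate, was higher in myometrium at 59.2 to 142 CPM (median 109.7) against 19.7 to 50.0 CPM (median 32) (log2 difference -1.71, SE 0.16, adjusted p = 1.22e-08). The degrading enzyme Cyp26a1 stood at 0 to 4.49 CPM (median 0.0515) in cervix and 4.58 to 21.2 CPM (median 10.5) in myometrium (log2 difference -4.49, SE 0.74, adjusted p = 2.38e-05, -6.53 without cervix R3). Aldh1a2 and Rdh10 were chosen after their values were seen.

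Of 32 genes associated with labour and contraction 19 were called higher in myometrium and 5 in cervix (median -0.60). Akr1c18, the enzyme that inactivates progesterone, stood at 6.77 to 139.6 CPM (median 20.1) in cervix and 849.6 to 2973 CPM (median 1242) in myometrium (log2 difference -5.40, SE 0.48, adjusted p = 4.56e-09, -6.02 without cervix R3). Hsd11b1, which regenerates active glucocorticoid, stood at 2.5 to 239.9 CPM (median 14.8) and 241 to 896 CPM (median 468) (log2 difference -3.82, SE 0.67, adjusted p = 5.54e-05, -5.28 without cervix R3), and Ptgs1, the constitutive cyclooxygenase, at 15 to 58.5 CPM (median 21.6) and 204 to 446 CPM (median 328) (log2 difference -3.43, SE 0.26, adjusted p = 2.66e-10). No cervix library reached the myometrium range for these 3 genes. Of 20 genes that respond to estrogen or progesterone 12 were called higher in myometrium and 3 in cervix (median -0.74), with S100g, a calcium-binding protein, at 2.93 to 124 CPM (median 12.8) and 150.2 to 341 CPM (median 194) (log2 difference -3.04, SE 0.56, adjusted p = 0.000101, -3.78 without cervix library 8). Hedgehog genes were mostly not called, 2 of 10 being higher in myometrium and none in cervix (median -0.25). Of 7 tested Wnt target genes 4 were higher in cervix and 2 in myometrium (median 0.64), with the transcription factor Tcf7 at 8.88 to 16.1 CPM (median 10.3) and 1.39 to 4.53 CPM (median 2.54) (log2 difference 1.93, SE 0.21, adjusted p = 9.67e-08).

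The same comparison in the 20 libraries of hCG-treated mice, which share no library with the PBS comparison, called 43.7% of 14974 genes. Of the 1841 genes past the 2-fold test in PBS mice 1736 were tested there, and 1595 were called in the same direction, 926 of them past 2-fold again. The log2 difference of Trp63 was 9.10 in PBS and 8.29 in hCG mice, that of Muc5b 12.98 and 12.89, that of Hoxd10 -4.05 and -3.46, that of Actg2 -2.09 and -1.84, and that of Tshr -4.69 and -4.29. Other fitted differences were further apart: 13.48 and 8.42 for Spdef, 12.52 and 8.79 for Grhl3, 10.76 and 6.39 for Cfd, and 7.85 and 4.54 for Krtdap. For genes with few or no myometrium counts such fitted values depend on the prior count. Of the 190 genes measured for the text and tested in both sets 45 had a difference smaller in size in hCG mice by more than 1 on the log2 scale, and 7 had one larger by more than 1. Many of these genes were picked for large PBS differences or after PBS values were seen. Such a choice by itself favours smaller differences in a second set, so these counts do not measure an effect of hCG. The difference between these tissue differences, tested as an interaction in all 40 libraries with edgeR, was called for 55 of 15624 genes (0.352%; 3120 genes at an unadjusted p under 0.05). Among the 206 genes measured for the text it was called for Agtr2 and Gpr83. Of the 196 of these genes called in PBS mice 18 were tested and not called in hCG mice, and 16 did not pass the count filter there. Among the 18 were Upk1a, a urothelial gene (-2.52 in PBS and 0.18 in hCG mice), Gata6 (-0.60), Casq2 (-0.91), Ptger3 (-0.63) and Cldn8 (-1.0). Oxtr was lower in cervix than in myometrium in hCG mice (-1.04, adjusted p = 0.00521), and its interaction was not called (-1.32, adjusted p = 0.245).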

How the data were processed

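Total RNA of 40 tissue samples was sequenced from TruSeq stranded libraries, per the labels' protocols. The authors deposited raw read counts per gene for 23079 NCBI gene identifiers, made with TopHat2 on GRCm38 (mm10) per the submitters' processing notes. Neither the counting tool nor its strand setting is named there, so reads of overlapping or antisense genes cannot be told apart, and near-identical copies may share reads. Symbols came from RefSeq (GRCm38.p6) for 23008 identifiers, and the other 71 held 0.197% of counts. Library totals were 5933199 to 25028360 counts, and a count of 0 in a library allows up to 3 counts, which is 0.12 to 0.506 CPM depending on depth. Such floors and the 95% exact binomial intervals of ratios cover counting error only.

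The 20 PBS libraries were filtered with filterByExpr, scaled by TMM and tested with edgeR 4.0.16 (R 4.3.3), by the robust quasi-likelihood F-test and, against 2-fold, by glmTreat. P-values were Benjamini-Hochberg adjusted over all genes at 0.05. The standard error is the log2 difference divided by the square root of F. The tests were checked on simulated data. Alternatives were DESeq2 1.42.0, limma 3.58.1 voom with quality weights, RLE and upper-quartile factors, other count filters, no robust dispersion, a fit of all 40 libraries, the label number as a block, deeper or shallower cervix libraries alone, omission of libraries high in Lars2 and of each library in turn, and the hCG libraries. Omission of myometrium libraries 4, 8 and R3, and the fit of the block's 18 libraries without the block, were chosen after seeing the data.

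Members, lists and gene families were chosen with earlier results of these data known, and family patterns were corrected after values were seen. The 32 lists and 59 families describe genes by counts and medians. Genes named by rule were a panel of reproductive tract genes, all tested Hox genes, up to 10 per class and direction with the largest change past the 2-fold test and at least 5 CPM in the higher tissue, and up to 4 called members per list at the same level. Some genes so named are not reported here. The text says which other genes were picked once values were known. Levels per kilobase are means divided by exon length.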

Additional observations from a re-analysis of the deposited data

Results flagged for a closer look

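In 412 groups of 10 libraries, formed by the genes measured for the text and the tissues, 21 held a library whose gap to its nearest neighbour exceeded Dixon's 95% critical share of the group's range on the log2 scale. Chance flags about 1 in 20 such groups. Cervix R3 was that library for Prom1 (465 CPM, the highest of the cervix), Hsd11b1 (240.0 CPM), Cyp26a1 (4.49 CPM), Cldn5 (7.42 CPM) and Prss28 (0.418 CPM), genes that are all higher in myometrium. Of the other cervix libraries, library 4 was high in Pitx1 (44.4 CPM) and low in Itga1 (19.2 CPM) and Igf2 (0.529 CPM), library 6 was high in Hoxb3 (24.3 CPM) and library 5 low in Npr3 (1.62 CPM). Myometrium library 1 was high in Arnt2 (38.9 CPM), Rxfp2 (44.0 CPM), Tnfrsf9 (19.6 CPM) and Tfap2c (2.48 CPM). Myometrium R3 was high in Sfrp1 (36.7 CPM) and Spink5 (0.868 CPM), library 4 was high in Igfbp3 (358 CPM) and low in Ptger3 (8.3 CPM), and library 8 was low in Penk (168 CPM), Ednrb (69.4 CPM) and Adgrg3 (3.91 CPM).

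The tissue difference itself differed between hCG and PBS mice for Gpr83, an orphan receptor of brain and regulatory T cells chosen after its values were seen. It stood at 0.384 to 173 CPM (median 9.48) in PBS cervix and 1.74 to 12.9 CPM (median 3.43) in PBS myometrium (log2 difference 2.98, SE 0.85, adjusted p = 0.0053), and in hCG mice it was lower in cervix (log2 difference -1.81, adjusted p = 0.00558). It was the only one of 1736 genes past the 2-fold test that was called in the opposite direction in hCG mice. The difference between the differences was -4.78 (SE 1.03, edgeR adjusted p = 0.0392). Without cervix library 8, which held the highest value, the PBS difference was 2.05, and it was not called with limma voom (1.09, adjusted p = 0.278). For the angiotensin receptor Agtr2 the difference between the differences was -1.86 (SE 0.45, edgeR adjusted p = 0.0497), from 2.29 in PBS to 0.44 (adjusted p = 0.254) in hCG mice.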

How the results depend on the processing

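The number of genes past the plain test was 7512 to 8235 on leaving out each library in turn and 6298 to 9106 under the other alternatives (7859 as reported). The number past the 2-fold test was 1740 to 2093 on leaving out each library and 1500 to 2644 under the others (1841 as reported), except in the hCG libraries, where it was 1167. Without the libraries rich in yolk sac markers the counts were 7639 and 2019, and without those high in Lars2 8026 and 1949. With the replicate number as a block, over the 18 libraries whose numbers occur in both tissues (without cervix 7 and myometrium R4), the counts were 8147 and 1914, against 7588 and 1764 in the same libraries without it. The numbers were not taken to pair the samples: deviations of same-numbered libraries correlated at -0.271 to 0.609, over 0.1 for 5 of 9 numbers, and 4 of 9 correlated best with their own number, a hint from the data and not from the design. Oxtr was highest in number 8 of both tissues (584 and 369 CPM), and 5, 6 and R3 held its 3 lowest cervix values. In myometrium 5, R3 and 6 stood at 37.7, 39.3 and 61.9 CPM, the lowest values among the numbers that occur in both tissues. With the block Gja1 was called (0.54, adjusted p = 0.0199), and Ttn (1.905, adjusted p = 0.0984) and Gpr83 (1.39, adjusted p = 0.253) were not. Without high-Lars2 libraries the differences of Hmga2 (-4.41), Agr2 (8.72), Pth2r (-7.33), Tnfrsf9 (-5.20), Cdh19 (4.92) and Crabp1 (8.04), and without yolk-sac-rich ones those of Dsc3 (12.03), Wnt10a (8.12) and Sfrp1 (2.83), moved by more than 1.5-fold and stayed called. Of 206 genes 173 kept direction and call under every alternative run. Signs turned for genes near 0 or in the hCG libraries, and the cause was not tested. In hCG mice the log2 difference was 0.37 for Hoxb5, 0.087 for Hoxb9, -1.04 for Oxtr, 0.54 for Rxfp1, 0.18 for Upk1a, -1.81 for Gpr83 and 0.43 for Col1a1. With the block it was -0.15 for Oxtr and 0.10 for Col1a1 (0.12 without the block in the same libraries), and with limma voom 0.20 for Col1a1. In the deeper cervix libraries it was -0.14 for Hoxb3 and -0.30 for Hoxb8, and in the shallower ones 0.049 for Hoxb5, 0.050 for Hoxb6, 0.12 for Hoxb9 and 0.29 for Col1a1. Without high-Lars2 libraries it was -0.22 for Hoxb3 and -0.32 for Hoxb8, and without yolk-sac-rich libraries -0.033 for Hoxb3. Leaving out each library gave -0.071 to 0.23 for Hoxb3 (lowest without cervix 6), -0.10 to 0.047 for Hoxb6, -0.17 to 0.56 for Oxtr (lowest without cervix 8) and -0.16 to 0.14 for Col1a1. At these depths a count of 0 over a whole group allows up to 0.0232 CPM in myometrium and 0.0211 CPM in cervix.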

Other observations

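Genes of steroid synthesis were present in the myometrium libraries at uneven levels. Cyp11a1, the enzyme that makes pregnenolone from cholesterol, stood at 1.49 to 341 CPM (median 13.5) in myometrium and at most 1.53 CPM in cervix. Hsd3b1, which makes progesterone from pregnenolone, stood at 1.02 to 1190 CPM (median 24.1) and at most 0.509 CPM. The trophoblast markers summed to 4.42 to 253 CPM in myometrium and 4.64 to 86.3 CPM in cervix. Jchain, the joining chain of secreted antibodies, stood at 1.41 to 37.3 CPM (median 7.91) in cervix and 14 to 131 CPM (median 46.1) in myometrium (log2 difference -2.16, SE 0.47, adjusted p = 0.000515).

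Several further genes were higher in cervix, of which Irx1 and Perp were chosen after their values were seen. Irx1, a homeobox gene, stood at 1.97 to 7.27 CPM (median 4.33) in cervix with no count in any myometrium library, at least 200.1-fold higher. Cxcl15, a chemokine of mucosal epithelia, stood at 10.9 to 146 CPM (median 109.5) in cervix and reached 0.35 CPM in myometrium. Perp, a p63 target in desmosomes, stood at 1019 to 4484 CPM (median 2400.1) and 92.6 to 190.0 CPM (median 113) (log2 difference 4.36, SE 0.27, adjusted p = 1.31e-11), and Notch3 at 26.8 to 167 CPM (median 56.8) and 6.37 to 20.2 CPM (median 11.3) (log2 difference 2.45, SE 0.30, adjusted p = 5.4e-07), although it was listed as a pericyte marker and 6 of the 8 pericyte markers were higher in myometrium. In myometrium the small heat shock protein Cryab stood at 83.2 to 255 CPM (median 139) against 10.6 to 24 CPM (median 15.6) in cervix (log2 difference -3.18, SE 0.21, adjusted p = 3.85e-11). None of the 3 overlapped between the tissues.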
